A study of Mus musculus with 9 samples.

Results

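7 long non-coding RNAs of neurons were followed by gene symbol through both transcript tables of the study: Meg3, Rian, Mirg, Malat1, Neat1, Miat and Snhg11. They are 7 of 47593 gene symbols and hold 61 of 115220 transcripts. A gene's level is the sum of the FPKM of its transcripts (fragments per kilobase of transcript, scaled to the mapped fragments of the library). Snhg11 is annotated as protein-coding in GENCODE, while the other 6 have non-coding annotations.

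The source is mPFC (medial prefrontal cortex) neurons of adult C57BL/6 mice. RNA was captured with RiboTag, a method that immunoprecipitates an epitope-tagged ribosomal protein along with whatever RNA it holds. The 9 libraries form 3 groups of 3. EWFxr1 mice were kept awake and overexpressed GFP-Fxr1 in the mPFC, that is Fxr1, a fragile X-related protein that binds RNA, joined to green fluorescent protein (GFP). EW control mice expressed GFP alone and were also kept awake, and S control mice expressed GFP alone and slept. What drives the tagged ribosomal protein, the duration of wake and any pooling of animals are not given in the sources used here. The labels do not say that replicates are separate animals, so p-values here cover sample-to-sample spread only, and that spread may be technical.

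Long non-coding RNAs act as RNA rather than through a protein. Malat1 and Neat1 are neighbours in the genome and stay largely in the nucleus: Malat1 gathers in nuclear speckles, which store splicing factors, and the long form of Neat1 is the scaffold of paraspeckles. Miat, also called Gomafu, sits in a nuclear compartment of its own in neurons and binds splicing factors, and activity is known to lower it in cultured human neurons. Meg3, Rian and Mirg lie in a row in the imprinted Dlk1-Dio3 domain, are expressed from the maternal chromosome, and this stretch carries clusters of microRNAs (miRNAs) and C/D box small nucleolar RNAs (snoRNAs). Snhg11 is a snoRNA host gene of neurons.

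Estimated depth was 2.99e+07 to 3.73e+07 fragments per library. Fxr1 averaged 76.9 ± 12.5 FPKM in EWFxr1, 33.3 ± 1.97 FPKM in EW and 32.5 ± 2.03 FPKM in S libraries (SD, n = 3 each). Its difference between EWFxr1 and EW was 1.17 on the log2(FPKM + 1) scale (limma adjusted p = 0.0366), and 0.0501 to 0.224 without EW replicate 1, 2 or 3 or EWFxr1 replicate 2 or 3. Summed pan-neuronal markers (Rbfox3, Snap25, Syt1, Tubb3 and Stmn2) had 3424 to 3584 FPKM in EWFxr1, 3084 to 3306 in EW and 3532 to 3686 in S libraries. Genes of this list differed: in EW against S, 1 passed as higher and 2 as lower in limma. The 6 excitatory neuron markers summed to 452 to 553 FPKM in EWFxr1, 565 to 639 in EW and 525 to 583 in S libraries. The 6 inhibitory neuron markers summed to 326 to 338, 355 to 391 and 309 to 373 FPKM in the same order. The 8 astrocyte markers summed to 341 to 393 FPKM in EWFxr1, 411 to 482 in EW and 389 to 438 in S libraries, so RNA of other cells was present. The 7 microglial markers summed to 12.3 to 19.6 FPKM in EWFxr1, 22.0 to 26.0 in EW and 15.7 to 26.1 in S libraries. Their part in the results on the non-coding RNAs was not tested.

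The sequences that the results below refer to come first. Mirg passed as higher in enforced wake against sleep, a call that was kept in 6 of 17 other settings. RefSeq (GRCm38.p6) places 26 mature miRNAs from 14 hairpins inside it, and mature miRNAs were not measured. The hairpin gene of miR-409 passed in enforced wake on no more than 4.0 estimated fragments per library. It met the filter of a mean of 0.5 FPKM only through its EW libraries. The call was lost with a trend with GC content and length removed (0.16, limma adjusted p = 0.607) and with length weighting (0.10, limma adjusted p = 0.178). Below are miR-134-5p, both arms of miR-409 and the only pair of Mirg miRNAs that share a seed. Of these, miR-134-5p is known in rodent neurons for its control of dendritic spine size. The seed, bases 2 to 8, is in capitals. They lie on the plus strand at chr12:109734145-109734166, chr12:109743172-109743194, chr12:109743204-109743225, chr12:109735669-109735692 and chr12:109739132-109739152.
mmu-miR-134-5p: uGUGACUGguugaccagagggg
mmu-miR-409-5p: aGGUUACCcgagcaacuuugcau
mmu-miR-409-3p: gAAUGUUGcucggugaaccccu
mmu-miR-453: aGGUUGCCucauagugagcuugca
mmu-miR-496a-5p: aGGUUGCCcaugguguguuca

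Rian-211, the Rian transcript with the widest spread of FPKM among EWFxr1 libraries, has a very small exon. Rian-211 (ENSMUST00000182737) has 699 bases in 5 exons, and 684 of them (97.9%) also belong to Rian-213. The other 15 bases are exon 3, chr12:109652701-109652715 on the plus strand of GRCm38, shown in capitals between 30 exonic bases on each side. The first 12 bases of this exon are the same letters as the first 12 bases of the next exon, which Rian-213 and Rian-202 join directly.
Rian-211: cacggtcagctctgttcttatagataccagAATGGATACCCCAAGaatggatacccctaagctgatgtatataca
Rian-213: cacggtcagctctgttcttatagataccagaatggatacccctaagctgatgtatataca

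Promoters were searched on both strands for the cAMP response element TGACGTCA (CRE), the AP-1 site TGANTCA and the E-box CACGTG, motifs of promoters driven by activity and by the clock. RefSeq held 7 promoter entries for 6 members, and Neat1 had none. The Mirg entry, chr12:109734731-109735030, lies inside the gene, so the sequence at the annotated Mirg start (chr12:109729764) was not searched. Only the upstream promoter of Meg3 held a match, 1 CRE, shown in capitals in chr12:109540746-109541045 (plus strand, GRCm38.p6). Of 32851 promoters of this length, 1.79% held the CRE, 7.81% the AP-1 site and 7.15% the E-box. A match describes letters and is not evidence of binding.
Meg3 promoter: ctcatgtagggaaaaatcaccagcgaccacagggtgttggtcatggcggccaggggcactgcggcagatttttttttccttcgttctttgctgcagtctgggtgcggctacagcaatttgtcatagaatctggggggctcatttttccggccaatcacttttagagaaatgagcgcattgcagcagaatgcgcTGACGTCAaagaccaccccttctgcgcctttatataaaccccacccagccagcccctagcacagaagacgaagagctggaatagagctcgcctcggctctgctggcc

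The members span a wide range of levels. Per length of transcript, Malat1 was the highest and Rian second in each group, and the ranges of Malat1 and Rian did not overlap within any group. Meg3 and Snhg11 followed at 11.3 to 24.0 FPKM, with overlapping ranges in all 3 groups. Miat was above Mirg in EW and in S libraries, while their ranges overlapped in EWFxr1 libraries. Neat1 was at the bottom, at 0.247 to 0.509 FPKM in 8 libraries and 1.43 FPKM in S replicate 2.

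**Figure D1:**
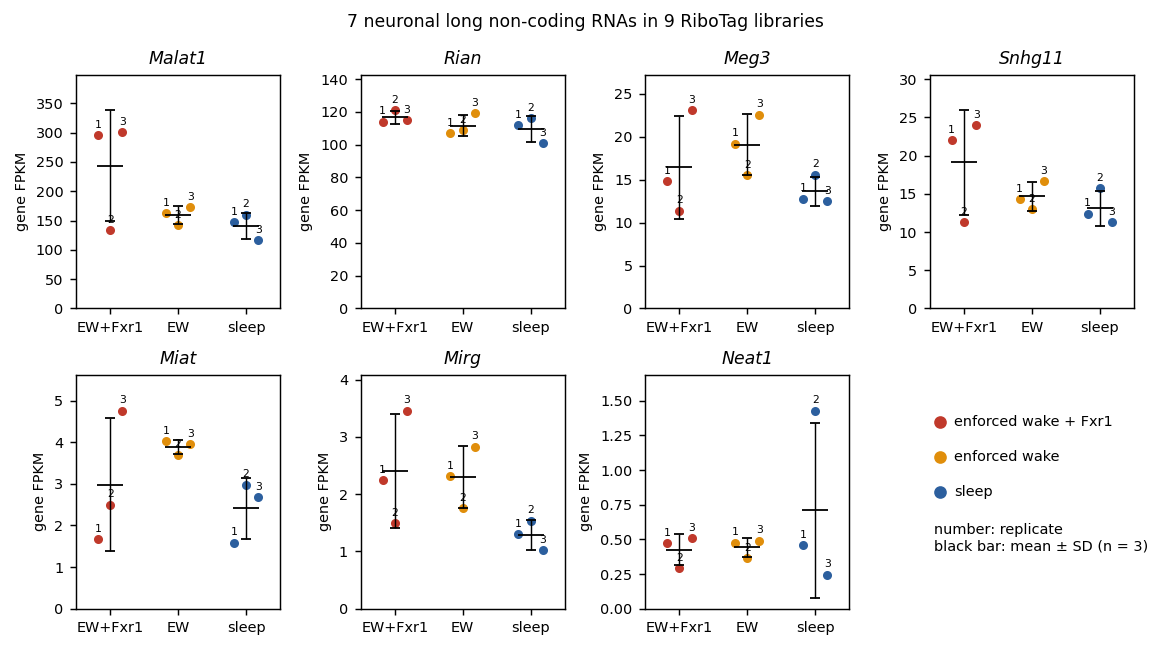
Gene FPKM (sum over transcripts, linear axes from 0) of the 7 non-coding RNAs in each library, with EWFxr1 left of EW and S. Numbers mark replicates and black bars the mean and SD of 3 libraries; EWFxr1 replicates 1 and 3 stand above the other libraries for Malat1 (295 and 301 FPKM) and Snhg11 (22.0 and 24.0 FPKM).

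Enforced wake was first set against sleep in the GFP controls. Mirg and Miat were higher in enforced wake, and no member passed as lower. That is 2 of 7 members with a limma adjusted p under 0.05, where 28.3% of all 14673 genes tested passed in either direction, 15.7% as higher and 12.7% as lower, so the members' share lies near that of all genes. The median log2 difference was 0.18 over the members and 0.00 over all genes. Of all genes 4156 passed, and 2570, 1822 and 1866 did without EW replicate 1, 2 and 3.

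Mirg (ENSMUSG00000097391, chr12:109729764-109749460, plus strand, lincRNA), the miRNA host at the far end of the domain, had 2.31, 1.76 and 2.83 FPKM in EW libraries, against 1.3, 1.54 and 1.02 FPKM in S libraries. All 3 EW libraries lay above all 3 S libraries, as they did for 25.8% of the genes tested. The log2(FPKM + 1) difference was 0.53 (SE 0.14, limma adjusted p = 0.0366), on a scale that understates changes of low genes. It rests on few reads: 82 to 141 estimated fragments per EW library and 47 to 78 per S library. The limma adjusted p was 0.0710 to 0.1 without S replicate 1 or 3 or EW replicate 1 or 3, 0.0811 after removal of a trend with GC content and length, 0.0808 with transcripts weighted by length, and 0.149 with all 9 libraries in the fit. Its main transcript, ENSMUST00000182074, had 0.779, 0.449 and 0.610 FPKM in EW libraries, against 0.287, 0.749 and 0.386 FPKM in S libraries. These groups overlapped, and the difference of this transcript was 0.14 (limma adjusted p = 0.657). In bulk libraries of captured RNA, more cells that contain an RNA, more RNA per cell and more capture of it cannot be told apart. This holds for all members.

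Miat (ENSMUSG00000097767, chr5:112213228-112229395, minus strand, lincRNA) had 4.02, 3.70 and 3.95 FPKM in EW libraries, against 1.59, 2.98 and 2.68 FPKM in S libraries. The groups did not overlap, and the log2 difference was 0.54 (SE 0.16, limma adjusted p = 0.0473). Its 3 transcripts with the highest mean FPKM did not follow the gene. The long Miat-205 (9163 bases) had 0, 0 and 2.95 FPKM in EW libraries, against 0.967, 0.0119 and 0.000126 FPKM in S libraries. The similarly long Miat-201 (8758 bases) had 1.11, 1.19 and 0.0237 FPKM in EW libraries, against 0, 1.06 and 2.12 FPKM in S libraries. The short Miat-202 (747 bases) had 1.95, 1.53 and 0.364 FPKM in EW libraries, against 0.510, 1.89 and 0.286 FPKM in S libraries. All 3 overlapped between the groups, and Miat-205 and Miat-201 were each at or near 0 in at least 1 library of both groups. The short Miat-206 (357 bases) did not overlap, at 0.959, 0.771 and 0.405 FPKM in EW libraries, against 0, 0 and 0.282 FPKM in S libraries. Miat-206 was under the filter of a mean of 0.5 FPKM, so it was not tested. When each transcript was weighted by its length, which turns FPKM into fragments scaled to library size alone (FPM), Miat had 11.5, 11.9 and 27.8 FPM in EW libraries, against 9.32, 10.8 and 18.8 FPM in S libraries. On that scale the groups overlapped and the difference was 0.31 (limma adjusted p = 0.558). The FPKM difference also missed the threshold without S replicate 3 (0.0667), without EW replicate 1, 2 or 3 (0.115, 0.1 and 0.123) with all 9 libraries in the fit (0.219) and, at a difference of 0.25, after removal of the GC and length trend (0.406), all limma adjusted p.

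Meg3 (ENSMUSG00000021268, chr12:109541001-109571726, plus strand, lincRNA), the first gene of the maternal cluster, had 19.2, 15.5 and 22.6 FPKM in EW libraries, against 12.8, 15.6 and 12.5 FPKM in S libraries. EW replicate 2 fell just below S replicate 2, so the groups overlapped. The log2 difference of 0.45 (SE 0.15) had a limma adjusted p of 0.0600, and without EW replicate 2 it was 0.59 with a limma adjusted p of 0.0401. Of its transcripts, ENSMUST00000143836 came closest, with 1.62, 1.83 and 1.72 FPKM in EW libraries, against 0.946, 0.677 and 0.702 FPKM in S libraries. These groups did not overlap, at a log2 difference of 0.62 and a limma adjusted p of 0.0551 over all transcripts. This transcript supplied 7.60% to 11.8% of Meg3 FPKM in EW libraries and 4.34% to 7.40% in S libraries, and most of the rest lay in ENSMUST00000129245 and ENSMUST00000146701.

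Rian (ENSMUSG00000097451, chr12:109603940-109661716, plus strand), the snoRNA-rich gene between Meg3 and Mirg, had 107, 109 and 119 FPKM in EW libraries, against 112, 116 and 101 FPKM in S libraries. The groups overlapped throughout, and the log2 difference of 0.03 had a 95% interval of -0.15 to 0.20 (limma adjusted p = 0.795). The estimate was -0.04 to 0.17 under the other settings, so its direction was not fixed. Rian was the member with the narrowest interval in this comparison, while Meg3 and Mirg on either side had larger estimates.

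The nuclear RNAs Malat1 and Neat1 did not pass. Malat1 (ENSMUSG00000092341, chr19:5795690-5802672, minus strand, lincRNA) had 163, 142 and 173 FPKM in EW libraries, against 147, 160 and 117 FPKM in S libraries, with overlap and a log2 difference of 0.18 (95% interval -0.13 to 0.49, limma adjusted p = 0.333). Neat1 (ENSMUSG00000092274, chr19:5824708-5845478, minus strand, lincRNA) had 0.477, 0.364 and 0.491 FPKM in EW libraries, against 0.458, 1.43 and 0.247 FPKM in S libraries. The high S library owed its level to 1.22 FPKM of the short ENSMUST00000174287 (3004 bases), which was listed at 0 in the other 8 libraries. The long ENSMUST00000173672, the paraspeckle scaffold of 20771 bases, had 0.460, 0.364 and 0.436 FPKM in EW libraries, against 0.458, 0.159 and 0.247 FPKM in S libraries. The gene difference was -0.19 (limma adjusted p = 0.579) and took the other direction, 0.27 (limma adjusted p = 0.326), with transcripts weighted by length. The long transcript itself was under the filter of a mean of 0.5 FPKM, so it was not tested. The gene met this filter only through S replicate 2, as it did in EWFxr1 against S.

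Snhg11 (ENSMUSG00000044349, chr2:158375638-158386145, plus strand) had 14.3, 13.0 and 16.7 FPKM in EW libraries, against 12.4, 15.7 and 11.3 FPKM in S libraries. The groups overlapped and the log2 difference was 0.15 (95% interval -0.17 to 0.48, limma adjusted p = 0.424). ENSMUST00000109488 supplied 88.3% to 93.8% of its FPKM in the 9 libraries.

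**Figure D2:**
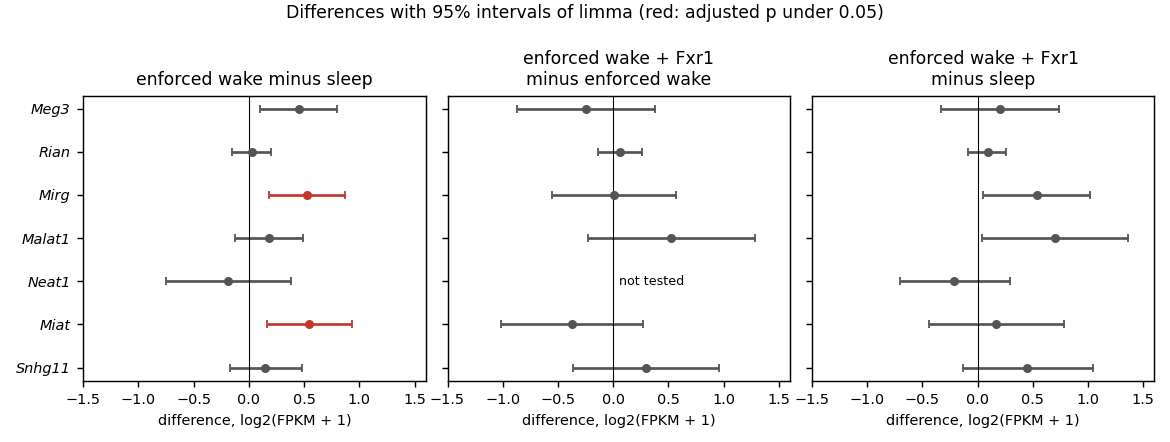
Differences of log2(FPKM + 1) with limma's 95% intervals for the 7 members in 3 comparisons, the group named first minus the group named second. Red marks a limma adjusted p under 0.05, reached by Mirg and Miat in enforced wake minus sleep; Neat1 was under the filter in the middle comparison.

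Fxr1 overexpression was set against GFP within enforced wake. None of the 6 members tested passed in limma, and none had an unadjusted p under 0.05, where 0.412% of all 14563 genes passed and 38.3% had an unadjusted p under 0.05. That background itself depended on single libraries: 60 genes passed in all, but 3316 did without EWFxr1 replicate 1, and 2 to 4 without EWFxr1 replicate 2 or any EW replicate. The median log2 difference was 0.03 over the members and -0.06 over all genes. The groups overlapped for all 6, while 52.5% of all genes tested had groups that did not overlap. EW libraries also serve as the comparison group here and as the awake group above, so the 2 sets of differences are not independent.

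Malat1 had the largest estimate. It had 295, 134 and 301 FPKM in EWFxr1 libraries, against 163, 142 and 173 FPKM in EW libraries. EWFxr1 replicates 1 and 3 stood above every control library, and replicate 2 below every EW library. The log2 difference was 0.52 with a 95% interval of -0.23 to 1.28 (SE 0.31, limma adjusted p = 0.248). Its main transcript, ENSMUST00000172812, carried 95.2% to 96.8% of the FPKM in all 9 libraries and showed the same split, at 281, 129 and 289 FPKM in EWFxr1 libraries, against 158, 136 and 166 FPKM in EW libraries.

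Snhg11 split in the same way. It had 22.0, 11.3 and 24.0 FPKM in EWFxr1 libraries, against 14.3, 13.0 and 16.7 FPKM in EW libraries, a log2 difference of 0.30 (95% interval -0.36 to 0.96, limma adjusted p = 0.429). Against sleep, Malat1 differed by 0.70 (SE 0.29, limma adjusted p = 0.154) and Snhg11 by 0.45 (SE 0.26, limma adjusted p = 0.260). Without EWFxr1 replicate 2 both passed against sleep, with Malat1 at 1.08 (limma adjusted p = 0.0141) and Snhg11 at 0.78 (limma adjusted p = 0.0355).

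Some measures of the same libraries showed this split and others did not. Transcripts annotated as retained introns took 3.28%, 2.70% and 3.15% of the summed FPKM in EWFxr1 libraries, against 2.63% to 2.80% in EW and 2.76% to 2.91% in S libraries. Transcripts annotated as lincRNA, the class of most members, took 0.671%, 0.872% and 0.637% in EWFxr1 libraries, against 0.382% to 0.412% in EW and 0.425% to 0.469% in S libraries, so all 3 EWFxr1 libraries were high and replicate 2 the highest. The miscellaneous RNA class took 0.942%, 2.88% and 3.05% in EWFxr1 libraries, against 4.99% to 5.39% in EW and 2.39% to 3.34% in S libraries, which sets replicate 1 apart from the rest. Of 8060 genes, the 3 whose library pattern lay closest to Malat1 were Snhg14, Macf1 and Hook1, with root-mean-square differences of 0.115, 0.139 and 0.176 log2 units over 9 libraries. The same 3 were closest to Snhg11, at 0.102, 0.121 and 0.127, and Malat1 and Snhg11 lay 0.138 apart. Snhg14, the long snoRNA host that runs antisense to Ube3a, had 117, 65.4 and 120 FPKM in EWFxr1, 74.8, 69.5 and 76.6 in EW and 64.8, 69.9 and 58.0 in S libraries. These likenesses were computed on the same 9 libraries and are descriptions. The part of these RNA classes in the level of the members was not tested.

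**Figure D3:**
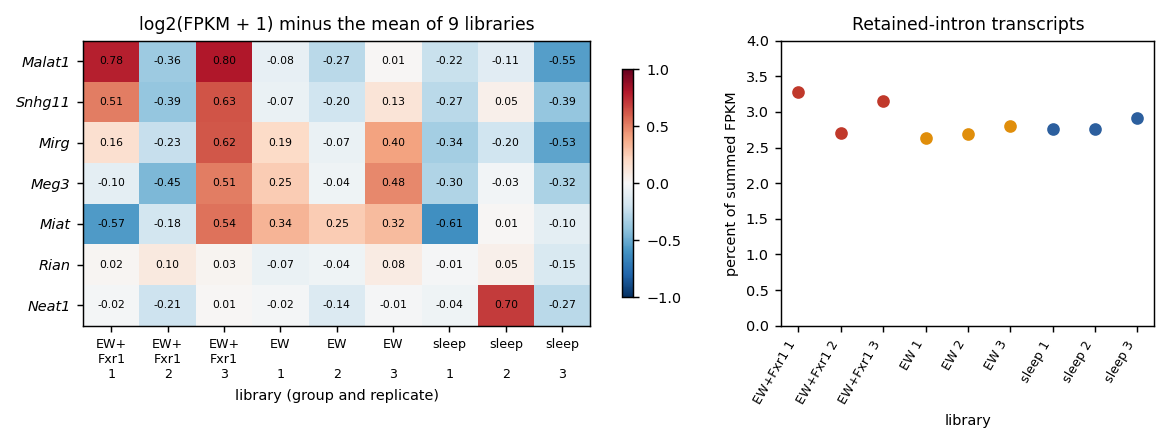
Left, log2(FPKM + 1) of each member minus its mean over the 9 libraries, with EWFxr1 libraries left of EW and S. Right, percent of summed FPKM in transcripts annotated as retained introns; EWFxr1 replicates 1 and 3 (3.28% and 3.15%) are the highest, as they are for Malat1 and Snhg11.

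Rian as a gene had 114, 121 and 115 FPKM in EWFxr1 libraries, against 107, 109 and 119 FPKM in EW libraries. The groups overlapped and the log2 difference was 0.06 (95% interval -0.14 to 0.26, limma adjusted p = 0.611). After removal of the GC and length trend it was -0.35 (SE 0.14, limma adjusted p = 0.21), the other direction and outside that interval. Its transcripts were less even than the sum. Rian-211, with the small exon shown above, had 10.9, 41.7 and 11.5 FPKM in EWFxr1 libraries, against 36.9, 41.0 and 38.4 FPKM in EW libraries and 41.6, 41.0 and 38.9 FPKM in S libraries. EWFxr1 replicates 1 and 3 were thus far below the other 7 libraries, which spanned 36.9 to 41.7 FPKM. The log2 difference between EWFxr1 and EW was -1.10 (SE 0.52, limma adjusted p = 0.293).

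The other abundant Rian transcripts did not follow this split, while the sum of the minor ones was high in the same 2 libraries. Rian-213 (ENSMUST00000182981, 1219 bases) had 13.6, 20.4 and 23.6 FPKM in EWFxr1 libraries, against 16.6, 16.3 and 21.1 FPKM in EW libraries, so replicate 1 lay below and replicate 3 above the EW libraries. Rian-202 (ENSMUST00000181253, 2355 bases) had 52.6, 42.3 and 44.4 FPKM in EWFxr1 libraries, against 35.0, 36.4 and 40.6 FPKM in EW libraries. All 3 EWFxr1 libraries, replicate 2 included, lay above the EW libraries, but the log2 difference of 0.30 did not pass (limma adjusted p = 0.242). The 16 transcripts other than Rian-202, Rian-211 and Rian-213 summed to 36.6, 16.1 and 35.0 FPKM in EWFxr1, 18.5, 15.7 and 18.6 FPKM in EW and 15.7, 20.6 and 12.7 FPKM in S libraries. Not each of them split in this way: Rian-216 had 1.01, 1.22 and 1.58 FPKM in EWFxr1 libraries, against 1.42, 1.66 and 1.47 FPKM in EW libraries. Transcripts that start upstream of Rian-202 gave 19.8%, 8.08% and 20.7% of Rian in EWFxr1 libraries and 8.13% to 11.4% in the 6 control libraries. Weighted by length, Rian had 195 ± 16.2 FPM in EWFxr1, 163 ± 10.7 FPM in EW and 161 ± 10.9 FPM in S libraries (SD, n = 3 each).

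**Figure D4:**
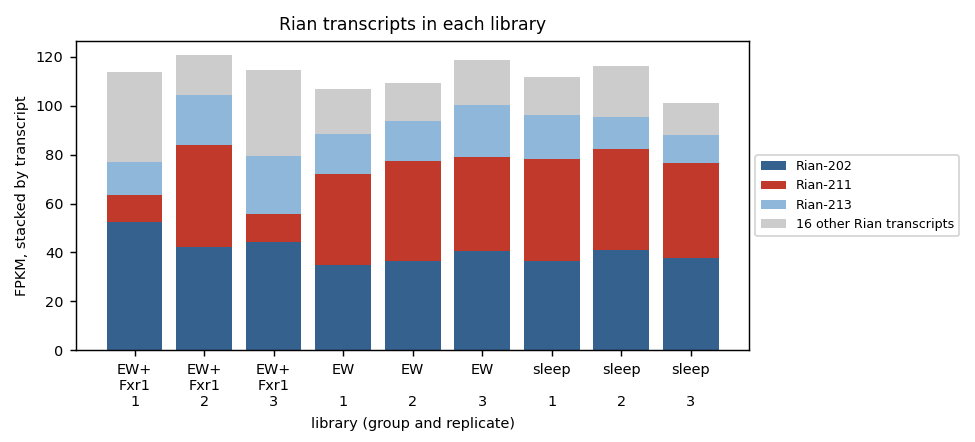
FPKM of Rian transcripts stacked per library, with EWFxr1 libraries left of EW and S. The totals lie between 101 and 121 FPKM, while Rian-211 is at 10.9 and 11.5 FPKM in EWFxr1 replicates 1 and 3 and at 36.9 to 41.7 FPKM in the other 7 libraries.

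The remaining members varied more among EWFxr1 libraries than the difference to EW. Meg3 had 14.8, 11.4 and 23.1 FPKM in EWFxr1 libraries, which straddle the 15.5 to 22.6 FPKM of EW libraries (log2 difference -0.25, limma adjusted p = 0.491). Mirg had 2.24, 1.49 and 3.46 FPKM in EWFxr1 libraries, against 1.76 to 2.83 FPKM in EW libraries (0.01, 95% interval -0.55 to 0.57, limma adjusted p = 0.974). Miat had 1.67, 2.5 and 4.76 FPKM in EWFxr1 libraries, against 3.70 to 4.02 FPKM in EW libraries (-0.37, 95% interval -1.02 to 0.27, limma adjusted p = 0.321), and the difference was 0.09, the other direction, after removal of the GC and length trend. Neat1 had 0.475, 0.296 and 0.509 FPKM in EWFxr1 libraries, inside or close to the EW range of 0.364 to 0.491 FPKM, and was under the filter. The interval of Mirg reaches past the size of its own wake difference in both directions, and that of Miat only in the lower direction. Whether Fxr1 changes either of them is not settled by these libraries.

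EWFxr1 was also set against sleep in a fit on all 9 libraries. None of the 7 members passed or had groups that did not overlap, where 7.79% of 14617 genes passed and 32.7% did not overlap, and in limma 2 had an unadjusted p under 0.05, Malat1 and Mirg, as 29.2% of all genes did. The number of genes passing was 1138, and 248 to 644 without any 1 S or EW library. Mirg differed by 0.54 (SE 0.21, limma adjusted p = 0.143), close to its difference between EW and S, but EWFxr1 replicate 2 at 1.49 FPKM lay within the S range of 1.02 to 1.54 FPKM. Meg3, Rian, Neat1 and Miat had differences of 0.20, 0.09, -0.21 and 0.17. The direction turned for Neat1 (0.27) and Miat (-0.20) with transcripts weighted by length, for Rian (-0.18) after removal of the GC and length trend, and for Meg3 (-0.06) and Miat (-0.14) without EWFxr1 replicate 3.

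**Figure D5:**
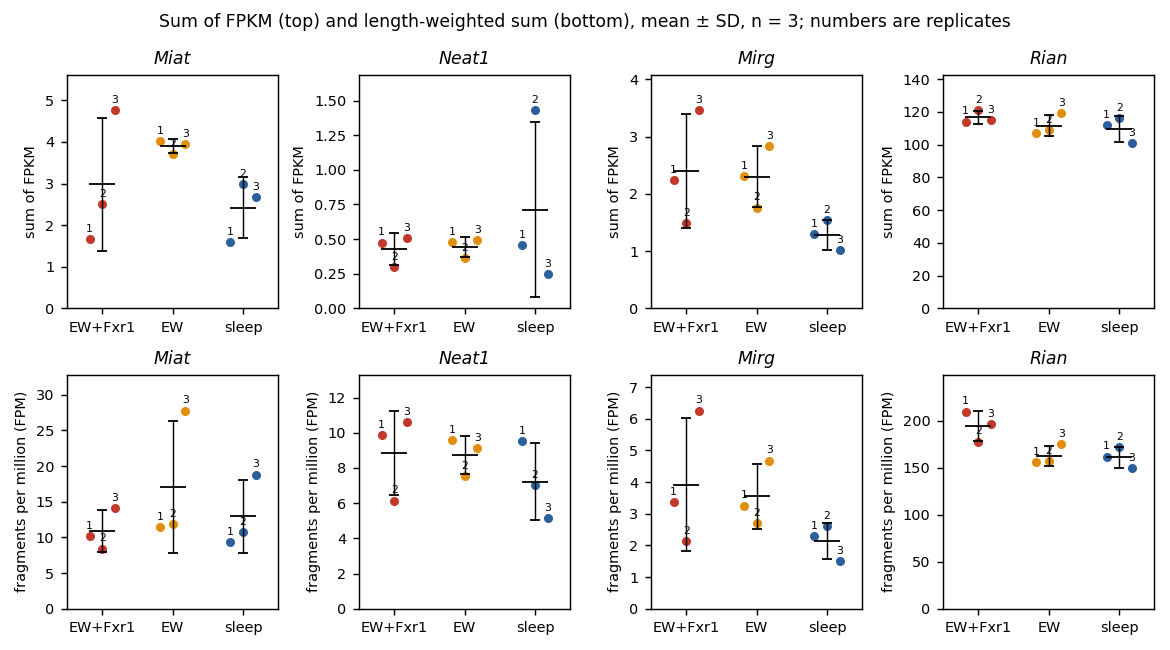
Top, sum of FPKM; bottom, the same estimates with each transcript weighted by its length, in FPM, for Miat, Neat1, Mirg and Rian, with EWFxr1 left of EW and S. Bars are the mean and SD of 3 libraries; the 3 EW libraries of Miat lie at 3.70 to 4.02 FPKM in the top row and at 11.5 to 27.8 FPM in the bottom row.

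Single transcripts gave no call. Of the members' transcripts 27, 27 and 25 passed the filter on low values in EW against S, EWFxr1 against EW and EWFxr1 against S, and in limma 0 had an adjusted p under 0.05, with smallest adjusted p of 0.0551, 0.242 and 0.215. An unadjusted p under 0.05 was found for 1, 2 and 5 of them. Of all transcripts tested, 3.62%, 0.895% and 0.818% passed. The authors' deposited table of enforced wake and sleep gave q-values for 58 of the 61 member transcripts, the smallest being 0.445 for ENSMUST00000143836 of Meg3, and the authors' deposited table of Fxr1 and enforced wake gave a smallest q of 0.399, for the Snhg11 transcript ENSMUST00000148965.

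The Dlk1-Dio3 domain was read by position between the start of Meg3 and the end of Mirg. It held 97 further genes, of which 66 were miRNA genes and 23 snoRNA genes, and 3 had a mean of at least 1 FPKM over the 9 libraries. In EW against S, 8 of the miRNA genes, 5 of the snoRNA genes and 1 lincRNA gene were tested. Of these, 1 miRNA gene and 1 snoRNA gene passed in limma, where 28.3% of all genes did. The hairpin genes Mir382, Mir453 and Mir541, which lie inside Mirg, did not pass, at log2 differences of 0.40, 0.26 and -0.35. The hairpin gene Mir409, inside Mirg, had 1.10, 1.63 and 1.11 FPKM in EW libraries, against 0.537, 0.0251 and 0.391 FPKM in S libraries. It passed with 0.81 on the log2 scale (limma adjusted p = 0.0182), and its limma adjusted p was 0.0586 and 0.0504 without EW replicate 2 or 3. With the GC and length trend removed the difference was 0.16 (limma adjusted p = 0.607), and with length weighting 0.10 (limma adjusted p = 0.178). These levels come to an estimated 2.6, 4.0 and 2.6 fragments in EW libraries and 1.4, 0.1 and 1.0 in S libraries. The snoRNA gene DQ267102 was lower in EW, at 0.471, 0.362 and 0 FPKM against 0.958, 0.722 and 0.892 FPKM in S libraries (-0.56, limma adjusted p = 0.0374, and 0.0568 to 0.0860 without EW replicate 2 or 3 or S replicate 2 or 3). Its limma adjusted p was also 0.0951 with a pseudocount of 0.1, 0.0775 with no filter on low values, 0.206 with all 9 libraries in the fit and 0.415 with length weighting. The levels come to at most 1.0 estimated fragment per EW library and 1.6 to 2.3 per S library, so both gene calls rest on a handful of fragments. Mir409 met the filter of a mean of 0.5 FPKM only through its EW libraries, and DQ267102 only through its S libraries. Total RNA libraries of this kind do not measure mature miRNAs, so these values are of longer RNA over the hairpins.

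The protein-coding genes of the domain, Rtl1 between Meg3 and Mirg and the flanking Dlk1, Dio3 and Begain, were low apart from Begain. Dio3, which encodes the enzyme that inactivates thyroid hormone, had 0.939 ± 0.174 FPKM in EW and 0.414 ± 0.140 FPKM in S libraries (SD, n = 3 each), a difference of 0.46 (limma adjusted p = 0.0253, and 0.0572 to 0.0804 without EW replicate 1 or 3 or S replicate 2). The Dio3 call was also lost with the trend removed, at 0.19 (limma adjusted p = 0.148), with no filter (0.0502) and with all 9 libraries in the fit (0.0598). Dio3 met the filter only through its EW libraries. Begain, which encodes a protein associated with synaptic scaffolds, had 10.7, 11.6 and 12.4 FPKM in EW libraries, against 8.85, 6.51 and 8.29 FPKM in S libraries (0.51, limma adjusted p = 0.0211, and 0.0654 and 0.0741 without EW replicate 2 or 3). After removal of the GC and length trend the Begain difference was -0.01, and with all 9 libraries in the fit its limma adjusted p was 0.199. Dlk1 and Rtl1 were under the filter. Of the long non-coding neighbours, Gm26945 had 3.43, 1.08 and 2.63 FPKM in EWFxr1, 1.38, 0.979 and 1.43 FPKM in EW and 1.16, 0.980 and 0.564 FPKM in S libraries, the same split among EWFxr1 libraries as Malat1.

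Other long non-coding RNAs moved in both directions in wake. Of 30 tested from a list of 50, 3 were higher and 4 lower in EW than in S, with a median of -0.13, and of all 595 genes annotated as long non-coding 30 (5.04%) passed as higher and 128 (21.5%) as lower. Gm26917 had 22.8 ± 4.02 FPKM in EW and 6.72 ± 0.940 FPKM in S libraries (1.62, limma adjusted p = 0.00164). Mir22hg, the host of miR-22, had 12.5 ± 0.271 FPKM in EW and 17.3 ± 0.495 FPKM in S libraries (-0.44, limma adjusted p = 0.00443). A330008L17Rik had 1.37 ± 0.129 FPKM in EW and 2.54 ± 0.133 FPKM in S libraries (-0.58, limma adjusted p = 0.00513). These 3 calls held with any 1 library left out, unlike those of Mirg and Miat, but with all 9 libraries in the fit Gm26917 had a limma adjusted p of 0.0624. The 3 genes were named for the smallest p of the list in this comparison, so the contrast with Mirg and Miat is not between like choices. In EWFxr1 against EW, 0 of the 30 passed in limma (9 at an unadjusted p under 0.05, where 38.3% of all genes were), and in EWFxr1 against S 2 were higher and 1 lower, where 3.20% and 4.58% of all genes were.

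Genes of proteins tied to these RNAs, to their compartments or to splicing were read from lists chosen for their function. Their captured RNA was measured, and protein was not. Of 18 genes of proteins of nuclear speckles, the compartment of Malat1, 7 were higher and 2 lower in EW than in S, with a median of 0.09. Of all genes tested 15.7% passed as higher and 12.7% as lower, which is the background for this and the following lists; whether a list differs from it was not tested. The splicing factor gene Srsf5 had 52.6 ± 5.38 FPKM in EW and 96.7 ± 5.08 FPKM in S libraries (-0.87, limma adjusted p = 0.00236), and Acin1 had 25.9 ± 1.29 and 14.3 ± 1.57 FPKM in EW and S (0.82, limma adjusted p = 0.00280). Of 15 genes of paraspeckle proteins, tied to Neat1, 3 were higher and 4 lower. Pspc1, which encodes a core paraspeckle protein, had 19.4 ± 2.40 FPKM in EW and 28.7 ± 1.22 FPKM in S libraries (-0.55, limma adjusted p = 0.0102).

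Of 9 genes of proteins tied to Miat or to splicing in neurons, 1 was higher and 1 lower in EW than in S. Celf4, a neuronal RNA-binding protein gene of the family of Celf3, which binds Miat, had 97.9, 91.6 and 95.4 FPKM in EW libraries, against 54.2, 52.7 and 54.9 FPKM in S libraries (0.81, limma adjusted p = 0.00101). Nova1, a neuronal splicing regulator gene, had 7.35 ± 0.0393 FPKM in EW and 11.9 ± 0.728 FPKM in S libraries (-0.63, limma adjusted p = 0.00262). Among 6 tested genes of RNA end processing 2 were higher: Rpph1, the RNA of RNase P, which cuts the end of Malat1, and Mettl16, whose human protein binds the triple helix of MALAT1. Rpph1 had 492 ± 32.3 FPKM in EW and 137 ± 43.3 FPKM in S libraries (1.89, limma adjusted p = 0.00433, and 0.0905 with all 9 libraries in the fit), and Mettl16 had 6.01 ± 0.113 and 2.98 ± 0.376 FPKM in EW and S (0.82, limma adjusted p = 0.00262).

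In EWFxr1 against EW, 0 genes of these protein lists passed in limma. An unadjusted limma p under 0.05 was found for 6 nuclear speckle genes and 4 paraspeckle genes. It was also found for 5 genes tied to Miat or to neuronal splicing and for 3 end processing genes. Of all genes tested, 38.3% had an unadjusted p under 0.05 there. In EWFxr1 against S, 3 nuclear speckle genes were higher and 1 lower, and 2 paraspeckle genes were higher and 1 lower. In the same comparison 1 end processing gene was higher. Of the 9 genes tied to Miat or to neuronal splicing 0 passed in limma (4 at an unadjusted p under 0.05). Of all genes tested 3.20% passed as higher and 4.58% as lower there, and 29.2% had an unadjusted p under 0.05. Mettl16 remained above sleep, at 7.25, 6.11 and 5.70 FPKM in EWFxr1 libraries, against 2.83, 2.70 and 3.41 FPKM in S libraries (0.88, limma adjusted p = 0.00383). Srsf5 had 54.8 ± 2.70 FPKM in EWFxr1 and 96.7 ± 5.08 FPKM in S libraries (-0.81, limma adjusted p = 0.00319). Rpph1 had 15.9, 81.5 and 113 FPKM in EWFxr1 libraries, against 458, 494 and 523 FPKM in EW libraries, with no overlap, and its log2 difference of -3.18 (SE 0.67) had a limma adjusted p of 0.0878, or 0.00279 without EWFxr1 replicate 1.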

How the data were processed

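Ribosome-associated RNA of 9 libraries was sequenced from stranded total RNA libraries, per the labels' protocols. The authors deposited 2 tables of 115220 transcripts with FPKM per library, and also their fold change (a linear ratio), p-value and q-value per transcript, per the file headers. HISAT2 2.1.0, SAMtools 1.9, StringTie 1.3.4d and GRCm38 are named in the submitters' processing notes; what computed the p-values and q-values is not stated there. Both tables carry the same values in the 3 EW columns, so they were joined. FPKM are relative to each library's total, and StringTie-type estimates can move between transcripts that share exons, so genes were taken as sums.

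limma 3.58.1 (R 4.3.3) was run on log2(FPKM + 1) of genes averaging 0.5 FPKM or more in the libraries of a comparison (intensity trend, 2-sided, Benjamini-Hochberg over all genes, threshold 0.05), on 6 libraries, or on 9 for EWFxr1 against S. The fit was tested on simulated data with independent noise for each gene. That simulation does not cover deviations that many genes of a library share. With 3 against 3 libraries an exact permutation test cannot give a p below 0.1, so no single-gene permutation test is printed. Depth came from the spacing of low FPKM values, times length, in single-exon genes. Length-weighted values are FPKM times transcript length, summed; this alternative was chosen after seeing the data. Of the transcripts, 99.1% were found in GENCODE M21, which gave positions and lengths; 1 minor Malat1 transcript had no length and is left out of the length-weighted value.

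Genes named besides the members are up to 3 with the smallest p of each list and comparison, the 3 nearest in library pattern among genes with a mean of at least 5 FPKM, and genes of the domain. The members and lists were chosen with earlier results of these data known. Whether replicate numbers pair the samples is not known. Same-numbered libraries of different groups had correlations of deviations from group means of -0.264 to 0.180, and libraries with different numbers -0.399 to 0.440. Deviations from a mean of 3 libraries depend on each other, so these correlations cannot settle it.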

Additional observations from a re-analysis of the deposited data

How the results depend on the processing

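Of 357 repeats of single members under other settings, 330 left the call as reported, 24 ended the call of Mirg or Miat in enforced wake against sleep, and 3 brought Meg3, Malat1 or Snhg11 past the threshold with 1 library left out. No passing member changed direction, while differences that did not pass took the other direction in 20 repeats. The number of members passing in enforced wake against sleep, 2 as reported, was 1 with a pseudocount of 0.1 and with libraries centred on the median gene. It was 0 with no filter on low values, with the GC and length trend removed, with all 9 libraries in the fit, with length-weighted values and with the main transcript, and 0 to 2 with 1 library left out. In enforced wake with Fxr1 against sleep it was 0 to 2 with 1 library left out. With a replicate block 0 members passed in enforced wake against sleep, also with the GC and length trend removed. Whether the numbers pair the samples is not known. The cause of these changes was not tested.

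Genes passing in enforced wake against sleep numbered 4156, and 2191 with the replicate block and the GC and length trend removed, 1398 with all 9 libraries, and 1822 to 3631 with 1 library left out. In enforced wake with Fxr1 against enforced wake, 60 passed, and 29 with a pseudocount of 0.1, 4 without the filter, 36 scaled without short non-coding genes, 3366 with all 9 libraries, 1 with the replicate block, 1 with the block and the trend removed, and 2 to 3316 with 1 library left out. In enforced wake with Fxr1 against sleep, 1138 passed, and 1877 with the trend removed, 372 with the replicate block, 183 with 6 libraries and 248 to 1440 with 1 library left out. Begain in enforced wake against sleep was -0.01 with the trend removed, with or without the block. Of 24 passing results of other named genes, 11 missed the threshold under at least 1 setting that kept the libraries of the comparison, among them Gm26917, Begain, Dio3, Rpph1 and DQ267102 with all 9 libraries in the fit, Mir409 and Dio3 with the trend removed, Mir409 and DQ267102 with length weighting, and Fxr1 in enforced wake with Fxr1 against enforced wake with no filter and with the block (limma adjusted p = 0.0732 and 0.0931). Relative counting error is largest for Mirg, with an estimated 47 to 219 fragments per library, against 162 to 370 for Neat1 and 309 to 836 for Miat.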
